A study of Rattus norvegicus with 12 samples.

Results

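The genes described here drive or accompany cell division: 42 were listed by phase, with 4 for entry from G1 into S, 11 for DNA replication and 27 for mitosis. A probe set is the group of short probes that reads out 1 transcript, and where a gene had several, the one brightest on average over the 12 arrays was used. A probe set of its own was found for 40 of the 42 genes, among 14217 genes on the array: 4 of 4 for G1/S, 10 of 11 for replication and 26 of 27 for mitosis. Rrm2 had only probe sets assigned to several genes, and Nek2 had none in the annotation used. The RNA came from livers of 10 week old male Sprague-Dawley rats dosed by gavage every 24 h for 72 h. The 4 groups held 3 rats each: control rats, whose gavage is not described further in the labels, rats given myclobutanil at 300 mg/kg/day, rats given propiconazole at 300 mg/kg/day and rats given triadimefon at 175 mg/kg/day. Each liver was hybridised to its own Affymetrix Rat Genome 230 2.0 array, and the labels name no transgene or deletion. Myclobutanil, propiconazole and triadimefon are triazole fungicides, made to block the fungal sterol demethylase.

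In the cell cycle, cyclin D (Ccnd1) and cyclin E (Ccne1, Ccne2) with their kinases release E2F factors such as E2f1 from retinoblastoma proteins, and E2F then switches on genes for the S phase. The Mcm proteins form the ring helicase that opens DNA, Pcna clamps the polymerases onto it, and Tyms, Tk1 and Rrm1 supply deoxynucleotides. Cdk1 with cyclins A and B drives mitosis, in which the Aurora and Plk1 kinases, the spindle checkpoint kinases Bub1, Bub1b and Ttk, the kinesins Kif11 and Kif20a and the ubiquitin ligase partners Cdc20 and Ube2c act in order. Hepatocytes of an adult rat divide rarely, but they can re-enter the cycle after loss of tissue or after exposure to some inducers of drug metabolism. In bulk tissue, more cells in cycle and more RNA per cycling cell cannot be told apart.

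The values are log-like scores as deposited, quantile normalized here, whose log base is unknown, so differences are given in these log-like units and never as folds. For scale, the weakest and the strongest of the spiked-in control transcripts, bioB and cre, were 2.73 units apart in the median array, and the median SD within a group over all probe sets was 0.0786. Of the 40 measured genes, 33 passed a filter that left out the dimmest 30% of probe sets by their mean over all arrays: 3 for G1/S, 9 for replication and 21 for mitosis. The 7 below it were Ccne2, Mcm6, Ccna2, Bub1, Kif11, Ttk and Melk. On the control mean alone 26 of the 33 would have passed, and the other 7 (Ccnb2, Bub1b, Aurkb, Foxm1, Cdkn3, Racgap1 and Pbk) passed only through treated livers. A gene was called when the limma p-value, adjusted by Benjamini-Hochberg over 21729 probe sets, was below 0.05. One array stood apart: myclobutanil 01 had a deposited median of 0.157, against 0.0182 to 0.0552 for the other 11, and a median correlation with the others of 0.928, against 0.962 to 0.982. The difference between the 3' and 5' probe sets of GAPDH, which grows as RNA or labelling shortens, averaged 0.659 ± 0.252 on the control arrays, 0.624 ± 0.128 after myclobutanil, 0.434 ± 0.106 after propiconazole and 0.587 ± 0.212 after triadimefon (SD, n = 3).

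After myclobutanil, mitotic genes were higher than in control livers, with a smaller difference for replication genes and none called for G1/S. Of the 33 tested genes 10 rose, 0 fell and 23 did not pass the test by limma, while over all probe sets 1.03% rose and 0.787% fell. The 10 were the mitotic genes Cdk1, Ccnb1, Mki67, Top2a, Aurkb, Cdca3, Racgap1 and Pbk (8 of 21) and the replication genes Mcm4 and Tyms (2 of 9). Aurkb, Racgap1 and Pbk had passed the filter only through treated livers; of the 26 genes that pass on the control mean, 7 rose, 5 of them mitotic. The median difference was 0.31 for mitosis, 0.15 for replication and 0.037 for G1/S, against -0.014 over all probe sets. The G1/S median rests on 3 genes. With the genes under the filter included, the medians were 0.30 for mitosis, 0.14 for replication and 0.11 for G1/S. At an unadjusted p under 0.05, 21 genes were higher (9.2% of all probe sets) and 1, Ccnd1, was lower (11.9%). In 22 of 33 genes the lowest myclobutanil liver exceeded the highest control liver (10.2% of all probe sets), and in 1, Ccnd1, the order was the opposite (13.1%). Of the 26 genes that pass on the control mean, 16 were higher without overlap, 11 of them mitotic. The unadjusted counts and the medians include the genes that passed only through treated livers.

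The calls depended on single arrays. Without control 01 or without control 03 no gene of the set was called by limma, although 21 and 23 of the 34 then tested were higher at an unadjusted p under 0.05. Without control 02 the only call was Ccne2, and without myclobutanil 03 the only call was Mcm4. Without myclobutanil 01, the array that stood apart, 8 genes were called, with Top2a and Aurkb lost at adjusted p of 0.0530 and 0.0558, and the median difference became 0.24 for mitosis, 0.084 for replication and 0.092 for G1/S. Without myclobutanil 02 there were 14 calls. A fit on the control and myclobutanil arrays alone called 0 of the 33 genes, with 21 higher at an unadjusted p under 0.05. The counts of these fits are given without those over all probe sets. They therefore do not show whether calls changed for this set or across the whole array.

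**Figure D1:**
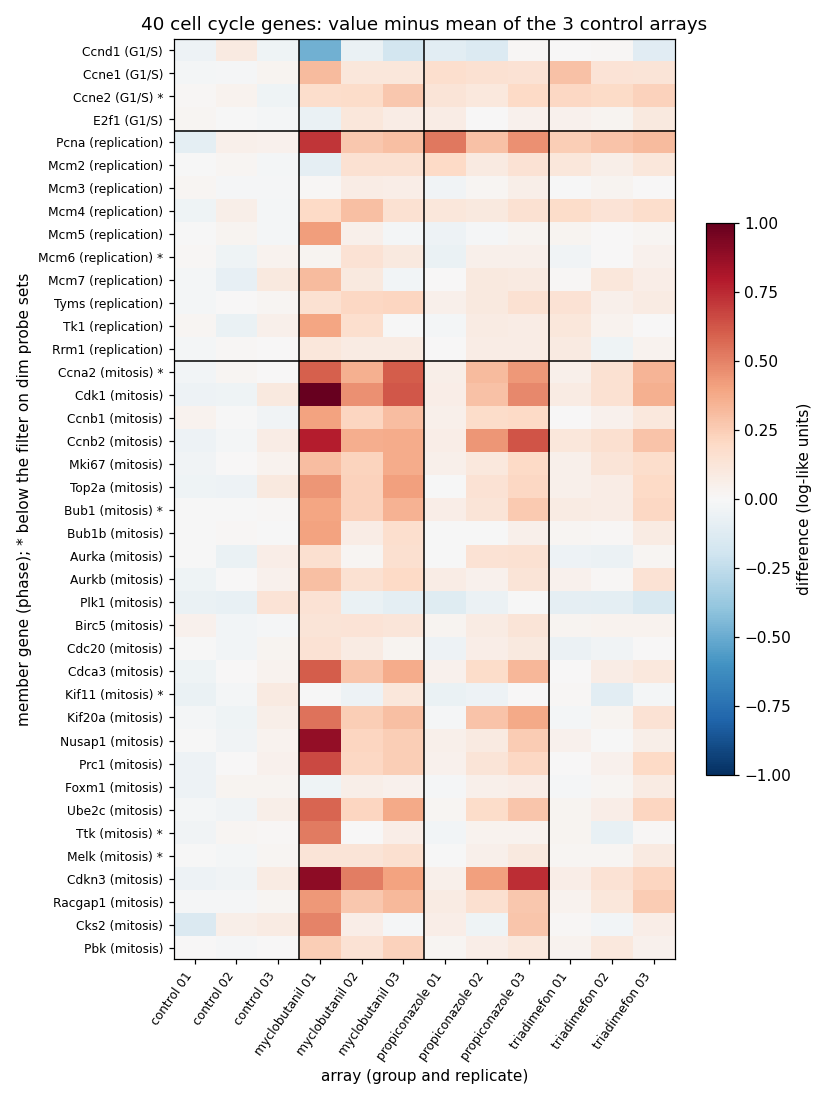
Each row is 1 of the 40 measured genes, ordered by phase, and each column is 1 liver; colour gives the value minus the mean of the 3 control livers, in log-like units, from -1 to 1. The myclobutanil columns are red over most mitotic rows, propiconazole 03 is redder than propiconazole 01, and Plk1, Foxm1 and Kif11 stay pale throughout.

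The cyclin-dependent kinase that commits cells to mitosis, Cdk1, had levels of -0.12, -0.11 and 0.026 in the control livers and 0.95, 0.39 and 0.55 after myclobutanil. It read -0.00066, 0.22 and 0.41 after propiconazole and 0.013, 0.079 and 0.28 after triadimefon. Every myclobutanil liver lay above every control liver, while the other 2 compounds overlapped the control range. Cdk1 was higher after myclobutanil than in control by 0.70 ± 0.14 (SE; limma adjusted p = 0.0344), the largest difference among the called genes of the set. Its partner cyclin B1, Ccnb1, stood at 0.054, 0.013 and -0.014 in control, 0.42, 0.23 and 0.32 after myclobutanil, 0.068, 0.20 and 0.22 after propiconazole and 0.022, 0.063 and 0.12 after triadimefon. All propiconazole livers lay between the control and the myclobutanil ranges. The difference between myclobutanil and control was 0.31 ± 0.055 (limma adjusted p = 0.0239), and a further Ccnb1 probe set gave 0.35 ± 0.081 (limma adjusted p = 0.0570).

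Mki67 encodes the proliferation antigen Ki-67, which coats mitotic chromosomes. Its levels were -0.14, -0.11 and -0.071 in control, 0.20, 0.12 and 0.26 after myclobutanil, -0.058, -0.0018 and 0.091 after propiconazole and -0.053, 0.023 and 0.070 after triadimefon. All 9 treated livers were above all 3 controls, and the 3 myclobutanil livers were above the other 9. The difference from control was 0.30 ± 0.049 (limma adjusted p = 0.0171). Top2a, the topoisomerase that untangles sister chromatids, read -0.056, -0.069 and 0.081 in control, 0.43, 0.21 and 0.39 after myclobutanil, -0.019, 0.13 and 0.19 after propiconazole and 0.035, 0.062 and 0.18 after triadimefon. The myclobutanil livers were again the highest 3 of the 12, and the remaining groups overlapped. Top2a differed from control by 0.36 ± 0.072 (limma adjusted p = 0.0388), and another Top2a probe set by 0.24 ± 0.12 (limma adjusted p = 0.281).

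Aurkb, the kinase of the chromosomal passenger complex, read -0.18, -0.13 and -0.095 in control, 0.16, 0.013 and 0.063 after myclobutanil, -0.063, -0.090 and -0.0032 after propiconazole and -0.095, -0.13 and 0.0075 after triadimefon. The myclobutanil livers were the highest 3, the propiconazole livers all exceeded the controls, and the triadimefon livers overlapped them. The difference after myclobutanil was 0.22 ± 0.047 (limma adjusted p = 0.0463), the largest adjusted p among the calls. Racgap1, which organises the central spindle and the cleavage furrow, stood at -0.20, -0.20 and -0.17 in control, 0.25, 0.082 and 0.14 after myclobutanil, -0.10, -0.030 and 0.082 after propiconazole and -0.16, -0.072 and 0.065 after triadimefon. Every treated liver was above every control liver. Racgap1 rose by 0.34 ± 0.062 after myclobutanil (limma adjusted p = 0.0246). Another Racgap1 probe set, under the filter, differed by 0.027 ± 0.025.

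Cdca3, a mitotic entry factor that links to ubiquitin ligase, read 0.10, 0.14 and 0.17 in control, 0.74, 0.41 and 0.51 after myclobutanil, 0.18, 0.32 and 0.47 after propiconazole and 0.15, 0.21 and 0.25 after triadimefon. The control and propiconazole ranges did not overlap, and 1 propiconazole liver reached into the myclobutanil range. Its difference after myclobutanil was 0.42 ± 0.085 (limma adjusted p = 0.0403). Pbk, a kinase active in mitotic cells, stood at -0.18, -0.20 and -0.18 in control, 0.057, -0.047 and 0.038 after myclobutanil, -0.17, -0.12 and -0.085 after propiconazole and -0.15, -0.085 and -0.15 after triadimefon. All treated livers were above the controls, and the myclobutanil livers above all others. Pbk rose by 0.21 ± 0.034 (limma adjusted p = 0.0173).

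Among the replication genes, Mcm4, a subunit of the helicase ring, read -0.11, -0.0036 and -0.083 in control, 0.14, 0.23 and 0.084 after myclobutanil, 0.051, 0.033 and 0.089 after propiconazole and 0.12, 0.071 and 0.11 after triadimefon. All 9 treated livers lay above the controls, and the treated groups overlapped each other. Mcm4 rose after myclobutanil by 0.22 ± 0.043 (limma adjusted p = 0.0347). Tyms, thymidylate synthase, stood at -0.13, -0.11 and -0.094 in control, 0.038, 0.096 and 0.10 after myclobutanil, -0.060, -0.020 and 0.039 after propiconazole and 0.032, -0.060 and -0.032 after triadimefon. Here too every treated liver exceeded every control liver. The difference after myclobutanil was 0.19 ± 0.035 (limma adjusted p = 0.0262).

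**Figure D2:**
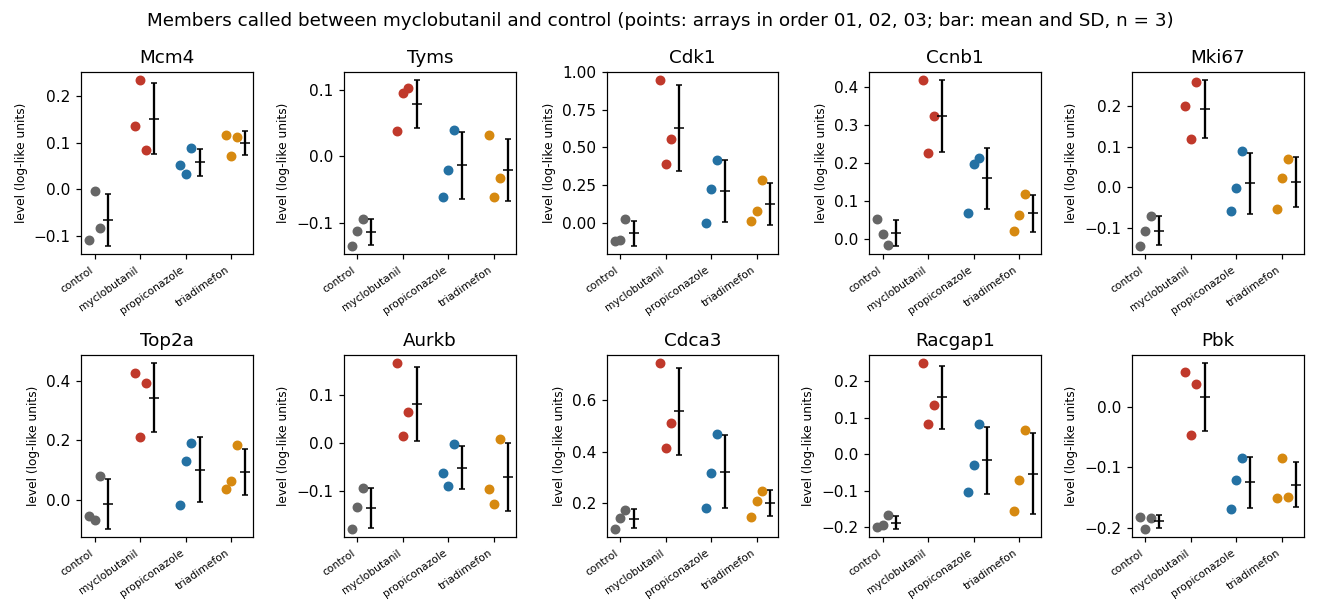
Each panel shows 1 of the 10 genes called between myclobutanil and control; points are single livers in the order 01, 02 and 03, the bar is the mean with SD (n = 3), and the vertical axis is the level in log-like units. In each panel the 3 myclobutanil points lie above the 3 control points.

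The other replication genes did not pass the test after myclobutanil, with differences from 0.047 for Mcm3 to 0.43 for Pcna. Pcna, the sliding clamp, was 0.43 ± 0.11 above control (limma adjusted p = 0.0804), and its lowest myclobutanil liver, at 1.40, was above its highest control liver, at 1.19. The other helicase subunits differed less: Mcm2 by 0.070, Mcm5 by 0.15 and Mcm7 by 0.13, each with overlapping groups. Several of these values turned on myclobutanil 01: without that array Pcna differed by 0.29, Mcm5 by 0.014, Mcm7 by 0.036 and Tk1 by 0.081. Mcm2 then differed by 0.15, with groups that no longer overlapped. Rrm1, the large subunit of ribonucleotide reductase, differed by 0.093 ± 0.037 with groups that did not overlap. Tk1, thymidine kinase, gave 0.18, 0.36 and 0.041 on its 3 probe sets, none of them called.

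Of the 13 mitotic genes that were tested and not called after myclobutanil, 9 still had all myclobutanil livers above all control livers. Ccnb2, Bub1b and Cdkn3, which are among the 9, had passed the filter only through treated livers. The largest differences were those of Cdkn3, a phosphatase acting on cyclin-dependent kinases, with 0.60 ± 0.15 (limma adjusted p = 0.0738), and cyclin B2, Ccnb2, with 0.51 ± 0.14 (limma adjusted p = 0.0824). Nusap1, which binds spindle microtubules, differed by 0.45 ± 0.14 on the chosen probe set but by 0.074 ± 0.040 on another, and without myclobutanil 01 the chosen probe set gave 0.24. Ube2c differed by 0.39, Kif20a by 0.37, Prc1, a bundler of spindle midzone microtubules, by 0.37, Bub1b by 0.22, Birc5, the passenger protein survivin, by 0.13 and Cdc20 by 0.085. Without myclobutanil 01, Prc1 differed by 0.23 and Bub1b by 0.12. The 4 with overlapping groups were Cks2 (0.19, and 0.032 without myclobutanil 01), Aurka (0.11), Foxm1 and Plk1. Foxm1, a transcription factor for mitotic genes, differed by 0.021 ± 0.037, with a 95% interval of -0.061 to 0.10. Plk1 differed by -0.0064 ± 0.072, with an interval of -0.17 to 0.15; without myclobutanil 01 these values were 0.051 and -0.083.

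The G1/S genes showed no common direction after myclobutanil. Cyclin D1, Ccnd1, read 0.53, 0.67 and 0.53 in control, 0.095, 0.51 and 0.40 after myclobutanil, 0.47, 0.44 and 0.58 after propiconazole and 0.58, 0.59 and 0.46 after triadimefon. Its myclobutanil livers all lay below the controls, by a mean of -0.24 ± 0.093 (limma adjusted p = 0.171), and by -0.13 without myclobutanil 01. The other Ccnd1 probe sets gave 0.098 ± 0.10 and -0.019 ± 0.065. Cyclin E1, Ccne1, stood at 0.10, 0.11 and 0.15 in control, 0.44, 0.23 and 0.23 after myclobutanil, 0.29, 0.27 and 0.26 after propiconazole and 0.42, 0.26 and 0.25 after triadimefon. All 9 treated livers were above the controls, with differences of 0.18 ± 0.060, 0.15 ± 0.060 and 0.19 ± 0.060 for myclobutanil, propiconazole and triadimefon (limma adjusted p = 0.129, 0.272 and 0.208). E2f1 read 0.088, 0.069 and 0.051 in control, 0.00016, 0.18 and 0.14 after myclobutanil, 0.14, 0.077 and 0.12 after propiconazole and 0.11, 0.098 and 0.17 after triadimefon, and the triadimefon range alone cleared the control range. Without myclobutanil 01 the myclobutanil differences of Ccne1 and E2f1 were 0.12 and 0.092.

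The 7 genes under the filter had mean levels between the 5.35 and the 29.0 percentile of all probe sets and are not among the 33 tested genes, although Ccne2 passed the filter once control 02 was left out. Cyclin E2, Ccne2, read -0.26, -0.24 and -0.32 in control, -0.099, -0.086 and -0.0071 after myclobutanil, -0.14, -0.17 and -0.077 after propiconazole and -0.068, -0.084 and -0.039 after triadimefon. All treated livers exceeded the controls, and the differences were 0.21 ± 0.035, 0.14 ± 0.035 and 0.21 ± 0.035 in the same order of compounds. With no filter, Ccne2 was called for myclobutanil and for triadimefon (limma adjusted p = 0.0230 and 0.0263) and not for propiconazole (0.0976), while its other probe set differed by 0.029 ± 0.034 after myclobutanil. Cyclin A2, Ccna2, differed by 0.52 ± 0.098 after myclobutanil and Bub1 by 0.32 ± 0.055 (limma adjusted p = 0.0369 and 0.0262 with no filter). Melk differed by 0.14 ± 0.031, Ttk by 0.20 ± 0.10, Mcm6 by 0.091 ± 0.040 and Kif11 by 0.018 ± 0.051, none called with no filter, and without myclobutanil 01 Ttk differed by 0.036 and Kif11 by 0.029. For Kif11 a second, slightly dimmer probe set gave 0.34 ± 0.051.

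**Figure D3:**
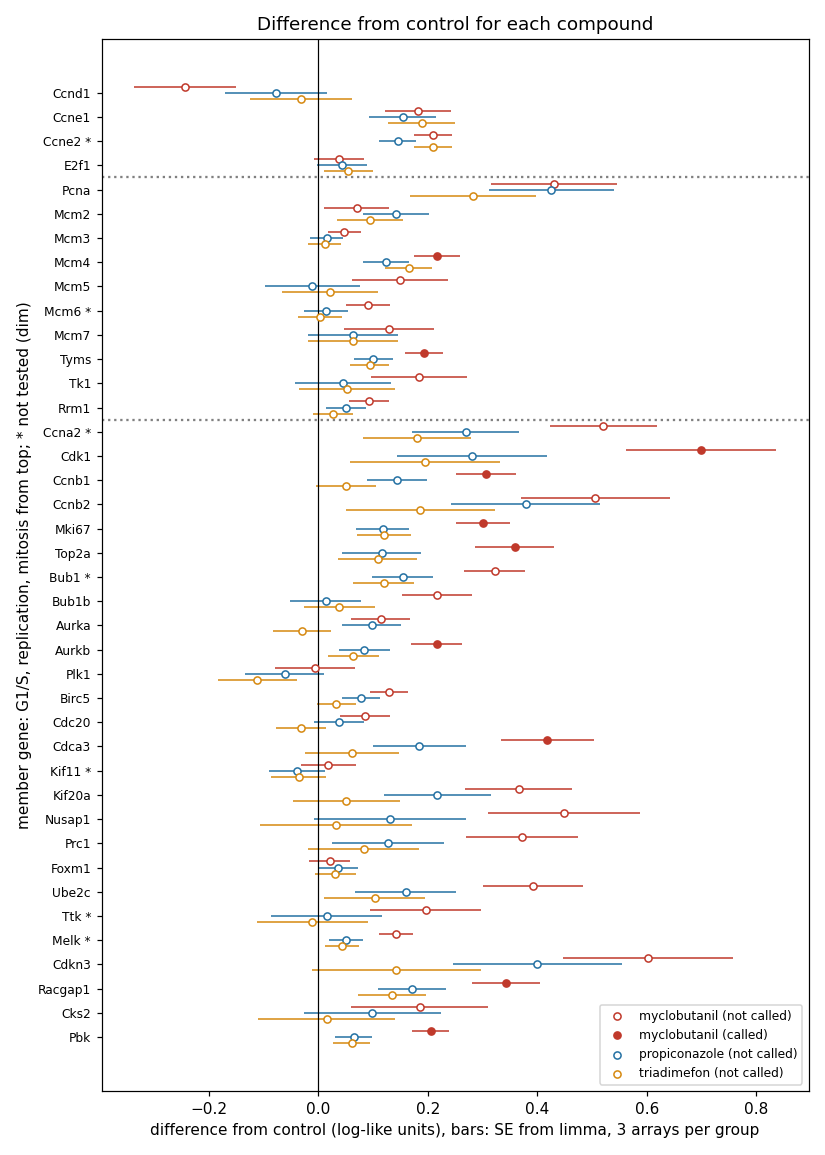
Points give the difference from control of each of the 40 measured genes for the 3 compounds, with SE from limma (3 livers per group), in log-like units; filled points were called and open points were not, and asterisks mark genes under the filter. The filled points are the 10 myclobutanil calls, and most mitotic genes have their largest difference after myclobutanil.

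After propiconazole, the differences from control had the same sign in most genes, and none passed the test. The medians for mitosis and replication were smaller than after myclobutanil. Limma called 0 of 33 genes, against 0.81% of all probe sets higher and 0.621% lower, and plain least squares without moderation also called 0. At an unadjusted p under 0.05, 12 genes were higher (7.73% of all probe sets) and 0 lower, and in 13 the groups did not overlap (12.1%). Aurkb, Racgap1 and Pbk, which are among the 13, had passed the filter only through treated livers. The median difference was 0.12 for mitosis, 0.063 for replication and 0.043 for G1/S. For G1/S the order against myclobutanil turned on the genes and arrays used. Myclobutanil gave 0.037 over the tested genes, and 0.092 without myclobutanil 01. With Ccne2 included, the G1/S medians were 0.094 after propiconazole and 0.11 after myclobutanil. Pcna was 0.43 ± 0.11 higher (limma adjusted p = 0.107), with all propiconazole livers at 1.42 or above. Cdkn3 differed by 0.40 ± 0.15, Ccnb2 by 0.38 ± 0.14, Cdk1 by 0.28 ± 0.14 and Mcm2 by 0.14 ± 0.060. Of these, Cdkn3 and Ccnb2 had passed the filter only through treated livers.

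After triadimefon, given at the lower dose, no gene passed the test. The median difference was smaller than after myclobutanil for mitosis and replication. Limma called 0 of 33 genes, with 0.488% of all probe sets higher and 0.281% lower, and plain least squares called 0. At an unadjusted p under 0.05, 5 genes were higher (7.02% of all probe sets), namely Ccne1, Pcna, Mcm4, Tyms and Mki67, and 0 lower. The groups did not overlap with triadimefon higher in 11 genes (12.5%) and lower in 1, Plk1 (15.8%). Ccnb2, Bub1b, Racgap1 and Pbk, which are among the 11, had passed the filter only through treated livers. The median difference was 0.061 for mitosis, 0.063 for replication and 0.055 for G1/S. For G1/S myclobutanil gave 0.037, and 0.092 without myclobutanil 01. With Ccne2 included, the G1/S medians were 0.12 after triadimefon and 0.11 after myclobutanil. Pcna was higher by 0.28 ± 0.11 (limma adjusted p = 0.314), Mcm4 by 0.17 ± 0.043 (0.117) and Ccnb2 by 0.19 ± 0.14 (0.599). All 3 comparisons with control share the same control livers.

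Myclobutanil and propiconazole were given at the same dose and can be compared directly; both carry a triazole ring, and they differ in that myclobutanil has a nitrile and propiconazole a dioxolane ring. Limma called 0 of 33 genes between them, as it called 0% higher and 0% lower over all probe sets, and plain least squares called 0. At an unadjusted p under 0.05, 13 genes were higher after myclobutanil (4.86% of all probe sets) and 0 lower, 12 of them mitotic. The groups did not overlap in 9 (6.31%). Aurkb, Bub1b, Racgap1 and Pbk, which are among the 9, had passed the filter only through treated livers. The median difference was 0.16 for mitosis, 0.066 for replication and -0.0056 for G1/S, and without myclobutanil 01 that for mitosis was 0.10. Pbk was 0.14 ± 0.034 higher after myclobutanil (95% interval 0.067 to 0.22, limma adjusted p = 0.272). Only the myclobutanil livers carried Pbk over the filter cut, which lay at a level of -0.123. Its mean was -0.189 in control, -0.125 after propiconazole and -0.129 after triadimefon. Mki67 was 0.18 ± 0.049 higher (0.075 to 0.29, limma adjusted p = 0.328) and Cdk1 0.42 ± 0.14 (0.12 to 0.72, limma adjusted p = 0.407). For Pcna the interval was -0.25 to 0.26, and for Ccnb2 -0.17 to 0.43. Without myclobutanil 01 the differences were 0.12 for Pbk, 0.18 for Mki67, 0.26 for Cdk1, -0.14 for Pcna and -0.013 for Ccnb2.

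Triadimefon was given at another dose, so its values against the other compounds stand side by side and are not a comparison of compounds alone. Between myclobutanil and triadimefon limma called 0 of 33 genes, with 0.0092% of all probe sets higher and 0.0184% lower, and plain least squares called 0. At an unadjusted p under 0.05, 19 genes were higher in the myclobutanil livers (3.82%) and 1, Ccnd1, was lower (3.79%), and 17 did not overlap (5.24%). Ccnb2, Aurkb, Cdkn3, Racgap1 and Pbk, which are among the 17, had passed the filter only through treated livers. Between propiconazole and triadimefon limma called 0 of 33, with 0% higher and 0% lower over all probe sets, and so did plain least squares. At an unadjusted p under 0.05 only Aurka was higher after propiconazole (1.52%) and 0 genes were lower.

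The order of the group means was counted by phase, without the same count over all probe sets. Of the 26 measured mitotic genes, 24 had their highest mean after myclobutanil and 21 their lowest in control, and 18 followed the full order of myclobutanil, propiconazole, triadimefon and control. Of the 10 replication genes, 9 were highest after myclobutanil, 9 were lowest in control and 5 followed the full order. Among the 4 G1/S genes, 3 were highest after triadimefon and 0 followed that order. The triadimefon and myclobutanil means were close for Ccne1 (0.308 and 0.301) and for Ccne2 (-0.0637 and -0.0642). Without myclobutanil 01, E2f1 was 0.036 higher after myclobutanil than after triadimefon. Genes read in the same livers are not separate observations, so these counts describe the livers of each group. No pair of neighbouring groups in this order was separated by the test for any gene. Plk1 had its highest mean in control and Foxm1 after propiconazole.

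**Figure D4:**
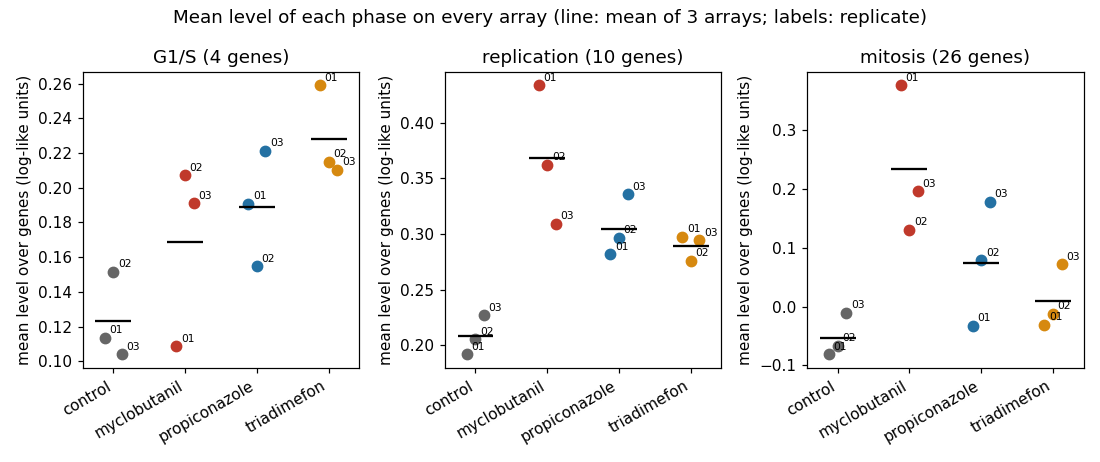
Each point is 1 liver, labelled by replicate, and gives the mean level over the measured genes of a phase in log-like units; the line is the mean of 3 livers, and the vertical axes differ and do not start at 0. In the mitosis panel the myclobutanil livers lie between 0.13 and 0.38 and the controls between -0.081 and -0.011.

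Mitotic genes varied together between livers of the same group. The mean over the 26 genes was -0.081, -0.067 and -0.011 in control, 0.38, 0.13 and 0.20 after myclobutanil, -0.033, 0.079 and 0.18 after propiconazole and -0.031, -0.012 and 0.072 after triadimefon. Propiconazole 03 held the highest value of its group in 25 of the 26 genes and propiconazole 01 the lowest in 24, where over all probe sets these arrays were highest in 32.6% and lowest in 31.3%. Triadimefon 03 was highest in 21 of 26 (25.4% of all probe sets) and control 03 in 19 of 26 (32.5%). Myclobutanil 01 was highest in 19 of 26 (37.1%) and myclobutanil 02 lowest in 20 (20.7%). The genes of 1 liver share its RNA and its array, so these counts describe single livers. Among the 10 replication genes, propiconazole 03 was highest in 5, propiconazole 01 lowest in 7 and triadimefon 03 highest in 3, to be read against the same shares over all probe sets. The GAPDH difference between 3' and 5' was 0.37, 0.80 and 0.81 on the control arrays and 0.68, 0.48 and 0.72 on the myclobutanil arrays. It was 0.55, 0.35 and 0.40 on the propiconazole arrays and 0.83, 0.51 and 0.42 on the triadimefon arrays. Its part in the spread was not tested.

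Promoters were set beside these results because the mitotic genes moved together. RefSeq promoters of assembly GRCr8, from 250 bases before to 50 bases after the gene start, were found for 30 of the 40 genes: 1 for G1/S, 9 for replication and 20 for mitosis. On both strands they were searched for the cell cycle genes homology region (CHR, TTTGAA), for CCAAT, the element known for NF-Y, and for the E2F forms TTTCCCGC, TTTCGCGC, TTTGCCGC and TTTGGCGC. Cdk1, Mki67 and Top2a are shown as called mitotic genes, Tyms as a called replication gene, Mcm5 for its E2F matches and Plk1 because it holds both mitotic motifs while its difference did not pass the test. The sequences run 5' to 3' on the gene's strand, and capitals mark the bases inside any motif match on either strand.
Cdk1: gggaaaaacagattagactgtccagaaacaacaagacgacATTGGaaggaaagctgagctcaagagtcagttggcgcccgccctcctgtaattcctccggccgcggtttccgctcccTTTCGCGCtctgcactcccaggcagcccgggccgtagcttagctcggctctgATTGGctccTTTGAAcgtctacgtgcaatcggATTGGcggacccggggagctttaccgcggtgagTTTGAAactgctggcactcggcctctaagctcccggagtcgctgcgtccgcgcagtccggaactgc
Mki67: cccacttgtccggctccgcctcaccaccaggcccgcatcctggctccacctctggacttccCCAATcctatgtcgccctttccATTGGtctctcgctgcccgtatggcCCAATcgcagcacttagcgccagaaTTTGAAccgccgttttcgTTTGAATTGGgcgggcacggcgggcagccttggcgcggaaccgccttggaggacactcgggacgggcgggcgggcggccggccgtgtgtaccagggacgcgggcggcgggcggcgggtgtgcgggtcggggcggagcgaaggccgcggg
Top2a: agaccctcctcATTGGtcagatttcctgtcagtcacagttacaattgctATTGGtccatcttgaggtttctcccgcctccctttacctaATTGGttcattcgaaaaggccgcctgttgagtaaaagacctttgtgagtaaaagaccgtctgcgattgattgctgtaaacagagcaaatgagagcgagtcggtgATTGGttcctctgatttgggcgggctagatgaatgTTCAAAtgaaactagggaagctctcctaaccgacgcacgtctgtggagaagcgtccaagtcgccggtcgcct
Plk1: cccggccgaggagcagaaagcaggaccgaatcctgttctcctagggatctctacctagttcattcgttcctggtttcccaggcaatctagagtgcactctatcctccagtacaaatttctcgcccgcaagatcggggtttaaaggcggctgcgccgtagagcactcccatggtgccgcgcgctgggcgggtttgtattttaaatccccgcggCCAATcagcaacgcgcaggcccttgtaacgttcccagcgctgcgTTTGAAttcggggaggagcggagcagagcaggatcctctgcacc
Tyms: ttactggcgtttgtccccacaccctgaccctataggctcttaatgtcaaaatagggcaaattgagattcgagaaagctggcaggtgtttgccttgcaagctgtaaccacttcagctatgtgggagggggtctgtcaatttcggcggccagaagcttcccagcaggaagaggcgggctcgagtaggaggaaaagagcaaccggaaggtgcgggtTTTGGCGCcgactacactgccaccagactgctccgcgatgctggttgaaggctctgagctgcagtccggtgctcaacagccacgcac
Mcm5: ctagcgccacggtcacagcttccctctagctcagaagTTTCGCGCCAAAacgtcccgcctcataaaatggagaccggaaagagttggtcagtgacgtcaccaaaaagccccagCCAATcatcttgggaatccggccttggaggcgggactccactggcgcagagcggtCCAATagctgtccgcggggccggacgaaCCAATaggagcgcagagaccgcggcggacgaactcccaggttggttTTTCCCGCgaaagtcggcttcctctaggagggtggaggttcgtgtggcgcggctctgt
They lie at chr20:19265043-19265342 (plus strand) for Cdk1, chr1:199952544-199952843 (minus strand) for Mki67, chr10:84473044-84473343 (minus strand) for Top2a, chr1:186147408-186147707 (plus strand) for Plk1, chr9:120776034-120776333 (minus strand) for Tyms and chr19:13488563-13488862 (plus strand) for Mcm5.

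Among the mitotic promoters, 13 of 20 (65.0%) held a CHR match, 16 of 20 (80.0%) a CCAAT match and 12 of 20 (60.0%) both. Over all 33469 promoters of the table the shares were 18.3%, 37.5% and 7.41%, and over 11701 genes with a probe set of their own 12.3%, 37.3% and 5.03%. An E2F match was found in 6 of 9 replication promoters (66.7%) and in 1 of 20 mitotic ones (5.0%), that of Cdk1, against 2.14% over all promoters and 3.65% over the array's genes. Replication promoters held CHR in 1 of 9 (11.1%), CCAAT in 6 of 9 (66.7%) and both in none. In Cdk1, CHR matches stood 72 and 16 bases before the start, and in Top2a 1 stood 22 bases before it on the other strand. In Mki67 the CHR match 99 bases before the start shares bases with a CCAAT match on the other strand, and in Mcm5 the E2F matches 213 and 209 bases before the start overlap on opposite strands. In Plk1 the CHR match lies 7 bases after the start and the CCAAT match 38 bases before it. Of the 6 called genes with a promoter, 3 held both motifs: Cdk1, Mki67 and Top2a. Ccnb1 and Cdca3 held CCAAT without a CHR match in this window, and Tyms held neither. For the called genes Mcm4, Aurkb, Racgap1 and Pbk no promoter was found. Both motifs also stood in genes that were not called: Plk1, Ccnb2, Birc5, Cdc20, Nusap1, Prc1, Cdkn3, Cks2 and, under the filter, Ttk. A match is a string of letters and no evidence of binding.

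Further genes of the pathway, listed with earlier results of these data known, were read the same way. Of 115 listed companions 97 had a probe set of their own and 69 were tested: 14 for G1/S, 27 for replication and 28 for mitosis. Whether any companion passed the filter only through treated livers was not checked. After myclobutanil 1 of 28 mitotic companions rose and 0 fell, namely Spc24, a kinetochore subunit, by 0.43 ± 0.069 (limma adjusted p = 0.0148), where 1.03% of all probe sets rose and 0.787% fell. Another 22 were above control without a call, 15 of the 28 were higher with groups that did not overlap (10.2% of all probe sets), and their median difference was 0.14. Of the replication companions 1 of 27 rose and 0 fell, the clamp loader subunit Rfc4, by 0.24 ± 0.049 (limma adjusted p = 0.0405), with a median of 0.13. Of the G1/S companions 0 of 14 rose and 1 fell: Rb1, the retinoblastoma protein, by -0.22 ± 0.050 after myclobutanil and by -0.24 ± 0.050 after propiconazole (limma adjusted p = 0.0496 and 0.0406). Over all probe sets 0.787% fell after myclobutanil and 0.621% after propiconazole. After propiconazole 0 replication or mitotic companions were called by limma, and 2 of 27 and 5 of 28 were higher at an unadjusted p under 0.05 (7.73% of all probe sets). Triadimefon had 2 calls, both higher, where 0.488% of all probe sets rose. Of the replication companions 1 of 27 rose, Slbp, which binds histone mRNA, by 0.33 ± 0.061 (limma adjusted p = 0.0341). Of the mitotic companions 1 of 28 rose, Wee1, the kinase that holds Cdk1 inactive, by 0.43 ± 0.081 (limma adjusted p = 0.0376). Slbp has 3 probe sets and Wee1 has 2, and only the brightest of each was read.

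Markers of the cell types a liver holds were read beside these genes. The hepatocyte list was high on every array, at a mean of 2.95 to 3.04 in control and 2.74 to 2.96 after myclobutanil, and 1 of its 13 tested genes fell, Cyp2e1, by -0.59 ± 0.11 (limma adjusted p = 0.0253). Markers of Kupffer cells and macrophages fell after myclobutanil in 5 of 11 (0.787% of all probe sets): Clec4f by -1.35, Cd5l by -1.32, C1qa by -1.002, C1qc by -0.73 and Adgre1 by -0.30. Their mean level was 1.23 to 1.39 in control, 0.588 to 1.05 after myclobutanil and 1.19 to 1.34 after both propiconazole and triadimefon. Of 12 leukocyte markers 0 were called after myclobutanil by limma, at an unadjusted p under 0.05 there was 1 above and 5 below control (9.2% and 11.9% of all probe sets), and their mean level was 0.0249 to 0.0566 in control and -0.0051 to 0.102 after myclobutanil. In the stellate list 1 of 10 tested genes rose, Rgs5 by 0.46, and 1 fell, Lrat by 0.36 (1.03% and 0.787% of all probe sets). Of the endothelial list 1 of 8 fell, Kdr by 0.55. The mean of the stellate list was 0.450 to 0.548 in control and 0.442 to 0.582 after myclobutanil, and that of the endothelial list 0.749 to 0.823 and 0.612 to 0.672. Stellate means were 0.409 to 0.470 after propiconazole and 0.511 to 0.827 after triadimefon. Endothelial means were 0.536 to 0.637 and 0.679 to 0.715 in the same order. After propiconazole limma called 1 of 10 stellate and 2 of 8 endothelial genes lower (0.621% of all probe sets), and after triadimefon none. The cholangiocyte list had a mean of -0.0013 to 0.065 in control, 0.085 to 0.19 after myclobutanil, 0.098 to 0.23 after propiconazole and 0.051 to 0.20 after triadimefon. Limma called 0 of its 3 tested genes after myclobutanil, with 1 above and 1 below control at an unadjusted p under 0.05, and Epcam was 0.42 ± 0.15 above control (limma adjusted p = 0.150). The red cell list had a mean of 0.836 to 0.890 in control and 0.510 to 0.831 after myclobutanil, with 0 of 4 genes called by limma and 1 lower at an unadjusted p under 0.05. The part of any of these cell types in the mitotic difference was not tested.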

How the data were processed

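Total RNA of each rat liver was labelled and hybridised to 1 array, per the labels' protocols, so p-values measure the spread between 3 animals per group. The authors deposited 1 log-like score for each probe set, between -1.003 and 4.83. How they summarised and normalized the probes, with which software and on which log base, is not stated in those sources, and the plan had assumed a known log scale. No pair of arrays was identical, and the number of arrays sets the precision.

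The 57 control probe sets were left out of 31099, the arrays were quantile normalized, and 9313 dim probe sets (30%) were removed, leaving 21729. Probe sets were named by the platform annotation, which can be old (1 gene for 20826, several for 436, none for 9780), with 20758 symbols updated through a RefSeq table. The 4 group means of the 12 arrays were fitted with limma 3.58.1 (R 4.3.3, moderated variances with an intensity trend, 8 residual degrees of freedom), two-sided, with Benjamini-Hochberg adjustment within each of 6 comparisons. Scripts were tested on simulated data. Figures used Python 3.11.15, pandas 2.3.3 and matplotlib 3.10.9. The genes, companion and marker lists, and the motifs were chosen with earlier results of these data known. Every gene is named; values on every array are given for genes called against control and for the G1/S genes, with companions named where called, and other values singled out were chosen after they were seen.

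Alternatives were the deposited values, median centring, no filter or a 50% filter, no intensity trend, the compared groups alone, array weights, a replicate block, the second probe set of a gene, no variance moderation, and each array left out in turn.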

Additional observations from a re-analysis of the deposited data

Results flagged for a closer look

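One probe set outside the comparisons carried a difference between myclobutanil and control. Probe set 1389408_at is assigned to several genes, Rrm2 of the replication list among them, so it stands for no single gene and entered none of the counts. It read 0.013, 0.057 and 0.28 in the control livers, 1.34, 0.80 and 1.31 after myclobutanil, 0.34, 0.64 and 0.89 after propiconazole and 0.24, 0.36 and 0.39 after triadimefon. All myclobutanil livers lay above all control livers, by a mean of 1.03 ± 0.16 (SE, limma adjusted p = 0.0122), more than for any gene of the set. After propiconazole the difference was 0.51 (limma adjusted p = 0.156) and after triadimefon 0.21 (0.601). A second probe set with the same assignment, 1393848_at, was under the filter on dim probe sets and was not tested. It read -0.55, -0.57 and -0.50 in control and -0.46, -0.48 and -0.40 after myclobutanil, without overlap but much closer together. Which of the assigned genes gave the signal was not tested.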

How the results depend on the processing

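The 10 calls for myclobutanil against control became 6 with the 50% filter, 0 with only the compared groups, 16 with array weights (whose estimation stopped before it converged) and 3 without moderated variances, and ran from 0 to 14 with 1 array left out; the cause was not tested. The replicate numbers did not pair the samples: correlations of deviations between same-numbered arrays ran from -0.49 to 0.50, and at most 1 of 3 arrays in a group pair correlated best with its own number. The fit with a replicate block called 4 genes. Propiconazole against control had 2 calls with only the compared groups (Ccne1 and Pcna) and 3 with array weights. Triadimefon against control had 1 call with no filter (Ccne2) and 2 with array weights. Array weights gave 1 call between myclobutanil and propiconazole (Mcm4) and 1 between myclobutanil and triadimefon (Tyms). The other alternatives left these counts within 1.5 times, and propiconazole against triadimefon stayed at 0 calls by limma in all of them. Counts under the alternatives are given without those over all probe sets in the same fits. Each of the 10 called genes stayed above control in all 14 to 16 alternatives that gave it a value, with 4 (Aurkb) to 10 (Mcm4 and Mki67) keeping the call. Over the 6 comparisons and the 3 scalings, the median difference of all probe sets lay between -0.022 and 0.019 units.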
